A study of Rattus norvegicus with 30 samples.

Results

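The comparison described here is how far rats of one age differ from each other in CpG methylation, aged against young, in the medial prefrontal cortex. It used every CpG of the deposited aged-young table with a methylation ratio in at least 8 aged and at least 8 young rats. Of 85484 CpGs in that table, 20219 (23.7%) met this rule, and 6407 of them had a ratio in all 30 rats. CpGs are counted by cytosine position, as the table lists them. The strands of a CpG were not merged, so a CpG listed at neighboring positions on both strands counts more than once. The median member had a ratio in 19 aged and 9 young animals, against 9 and 4 elsewhere in the table. The quantity compared is the spread between rats at a CpG, and not the difference in mean methylation between the ages.

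The samples were 30 male Fischer 344 rats, an inbred strain, with 1 whole genome bisulfite library per rat: 10 young rats of 5 to 6 months and 20 aged rats of 17 to 22 months. All had been trained on a set shifting task under food restriction before the prelimbic and infralimbic cortex was collected, and the labels divide the aged rats into 9 impaired (AI) and 11 unimpaired (AU) animals. The tissue was a mixture of neurons and glia, so a ratio is an average over cell types, and a different mix of cells and a different methylation within cells cannot be told apart. The rat identifiers fall into number series A (1918 to 1936, 11 aged and 3 young rats), B (2173 to 2191, 8 aged and 3 young) and C (121412 to 121448, 1 aged and 4 young). What these series stand for is not stated in the sources used here, so results are also given within them.

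Methylation of cytosine in CpG dinucleotides is copied to the daughter strand by DNMT1, set up by DNMT3A and DNMT3B, and removed through oxidation by the TET enzymes. Most CpGs of a mammalian genome are highly methylated, while those in active promoters are mostly unmethylated. A gradual divergence of methylation between individuals with age is known as epigenetic drift, and inbred animals offer a setting where inherited sequence differences contribute little to it.

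Rats of the same age differed from each other by about as much in the aged as in the young group. The spread of a rat was measured as its mean absolute deviation from the mean ratio of its age group, with equal numbers of aged and young rats drawn at each CpG. A value of 0.1 therefore means that the rat lay, on average, 0.1 on the ratio scale from 0 to 1 away from the group mean. Among the 20 aged rats the lowest, median and highest deviations were 0.0749, 0.0829 and 0.101, and among the 10 young rats they were 0.0786, 0.0840 and 0.0969. The ranges overlapped over most of their length. The means were 0.0842 ± 0.00746 (SD, n = 20) and 0.0862 ± 0.00750 (SD, n = 10), a difference (aged minus young) of -0.00197 with an SE of 0.00289 (2-sided permutation test, p = 0.499). Its 95% interval ran from -9.16% to 4.59% of the young value, so an excess of more than 4.59% in this measure lay outside it. The measure includes the counting error of reads, so the interval does not bound the differences between animals alone.

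The same picture was seen at single CpGs. The SD between rats, matched for their number, averaged 0.110 in the aged and 0.112 in the young group, and it was higher in the aged at 9774 CpGs (48.3%) and lower at 10413. Across the CpGs the SDs of the age groups were correlated (Pearson r = 0.593, Spearman rho = 0.608, a description over CpGs that share libraries and depth). CpGs with a larger SD among young rats thus tended to have a larger SD among aged rats. Both SDs also depend on methylation level and on read counting, which were not taken out of this correlation. The SD was more than 2 times higher in the aged at 3.79% of CpGs and more than 2 times higher in the young at 2.99%. Rats of one age spanned 0.5 or more of the ratio scale at 14.6% of CpGs in the aged and 15.7% in the young, and 0.8 or more at 0.668% and 0.683%.

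Within the aged group, no difference in spread by behavior was detected. Mean deviations of 0.0834 ± 0.00650 (SD, n = 9) for AI and 0.0848 ± 0.00841 (SD, n = 11) for AU animals differed by -0.00148 (AI minus AU), with p = 0.670 in an exact 2-sided permutation test.

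The number of CpGs with a ratio moved with the spread of a rat. The methylation tables give no read depth per rat beyond the minimum of 5 reads per rat and CpG, and the number of the 20219 CpGs with a ratio was used in its place. It ranged from 14200 to 19496 (median 18699) in aged and from 15458 to 19957 (median 19402) in young rats. The rule itself asks for 8 of 10 young but only 8 of 20 aged rats, which bears on these numbers. Rats with fewer CpGs had larger deviations (Pearson r = -0.901, permutation p = 1e-05, the smallest that the permutations can give, and Spearman rho = -0.759, permutation p = 2e-05, n = 30). Without the 2 rats farthest from the median number, r was -0.883. Within the aged, the young, series A and series B, r was -0.928, -0.950, -0.7 and -0.954, and the 5 adjusted permutation p-values for r lay between 2.5e-05 and 0.00508. In series A, r fell to -0.458 once the 2 farthest rats were left out.

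**Figure D1:**
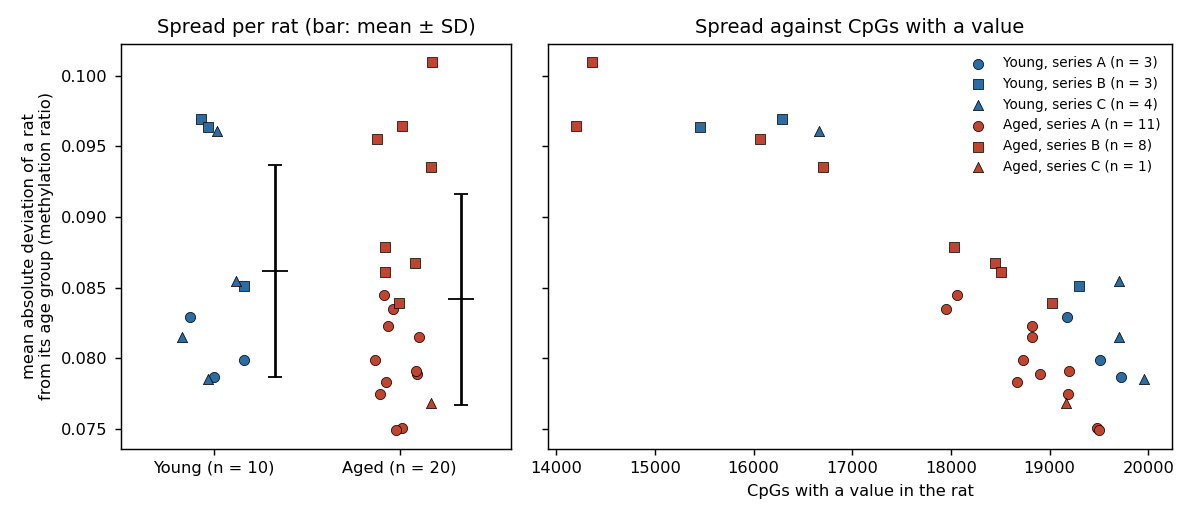
Mean absolute deviation of each rat from its age group (vertical axis, methylation ratio) by age (left, with mean ± SD) and against the number of the 20219 CpGs with a ratio in that rat (right). Colors mark age and symbols the number series. Rats with 16707 CpGs or fewer lie between 0.0935 and 0.101, all others between 0.0749 and 0.0879.

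Each rat's value was adjusted by linear regression for its number of CpGs, a step added after the data were seen. The residual spread was then lower in the aged rats. The rule for members asks for a larger share of the young than of the aged rats and so bears on the number adjusted for. How much of the adjusted difference comes from this was not tested. The adjusted difference was -0.00388 (2-sided permutation test, p = 0.00092), and the residuals ranged from -0.00527 to 0.00278 in aged and from -8.94e-05 to 0.00671 in young rats. At the 6407 positions with a ratio in every rat, the difference was -8.09e-05 before (p = 0.98, permutation test) and -0.00231 after the same adjustment (p = 0.0110, permutation test). A higher spread in the aged group as a whole was not seen in either form.

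The number series also moved with the spread, in both ages. Mean deviations were 0.0796 in aged and 0.0805 in young rats of series A, 0.0914 and 0.0928 in series B, and 0.0769 (1 rat) and 0.0854 in series C. When deviations were taken from rats of the same age and series, the aged-young difference was 0.000251 in series A (11 against 3 rats, exact permutation test, p = 0.849, adjusted p = 0.849). In series B it was -0.00547 (8 against 3 rats, exact permutation test, p = 0.0485, adjusted p = 0.0970), where the aged rats ranged from 0.0661 to 0.0753 and the young from 0.0714 to 0.0777. Adjusted for the number of CpGs, the difference was -0.00139 in series A and -0.00564 in series B (exact permutation test, adjusted p = 0.0604 and 0.0121). The limit of this adjustment given above holds here too. The unadjusted difference between the series was not significant (permutation of series within age, p = 0.297). Leaving out series A turned the overall difference to 0.000369 (permutation p = 0.890), and leaving out series B gave -0.00560 (permutation p = 0.00764). The part of depth and of the number series in these values was not tested further.

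Spread varied several-fold with methylation level, and within a level the ages lay close together. CpGs with a mean ratio under 0.1 had deviations of 0.0360 ± 0.00487 for aged and 0.0370 ± 0.00461 for young animals. This class was not compared with a gene annotation. It may hold many of the 426 mitochondrial CpGs, whose mean ratios were 0.116 in aged and 0.132 in young rats. The deviation was highest at intermediate levels, with 0.107 ± 0.0151 and 0.108 ± 0.0127 at ratios of 0.3 to 0.5. The 10921 CpGs at 0.7 to 0.9, the largest class, had 0.0840 ± 0.00637 and 0.0869 ± 0.00708, and those at 0.9 or more 0.0596 ± 0.00416 and 0.0590 ± 0.00502 (SD, n = 20 and n = 10 throughout). None of the 6 level classes passed a permutation test between ages, with an adjusted p of 0.853 in each class and 0 classes under 0.05 before adjustment. The differences lay between -0.00288 at 0.7 to 0.9 and 0.000544 at 0.9 or more. A share of a limited number of reads is itself most variable at intermediate levels, and this counting error was not separated from differences between animals.

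By chromosome, the deviation was lower in aged rats on 20 of 22 chromosomes (mitochondrial genome included) and higher on chromosomes 14 and 19. None of the 22 passed a permutation test, with a smallest adjusted p of 0.654 and 0 unadjusted p-values under 0.05. Nuclear chromosome means lay between 0.0671 and 0.0980 in aged and between 0.0738 and 0.0952 in young rats. The mitochondrial genome had 0.0392 ± 0.0227 and 0.0430 ± 0.0256, a difference that turned from -0.00386 to 0.00614 without Young rat 9. Leaving out single rats, an alternative added after seeing the data, left 1 to 5 of the 22 chromosomes higher in aged rats and none past the threshold. Chromosome 19 stood apart from the other chromosomes, with 0.0980 ± 0.0153 in aged against 0.0872 ± 0.0104 in young rats (difference 0.0108, unadjusted permutation p = 0.0545). Chromosome 19 passed under 3 alternatives, at CpGs with a ratio in all rats (0.0283, permutation test, adjusted p = 0.0011), with at least 10 ratios in each age (0.0245, adjusted p = 0.0066) and with pairs of rats (0.0123, adjusted p = 0.0486), whose values are not independent. The differences on the other chromosomes lay between -0.00673 and 0.00118. Without 86 neighboring CpGs of chromosome 19 described next, an alternative added after seeing the data, its difference turned to -0.00475 (0.0872 against 0.0920, permutation p = 0.307).

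**Figure D2:**
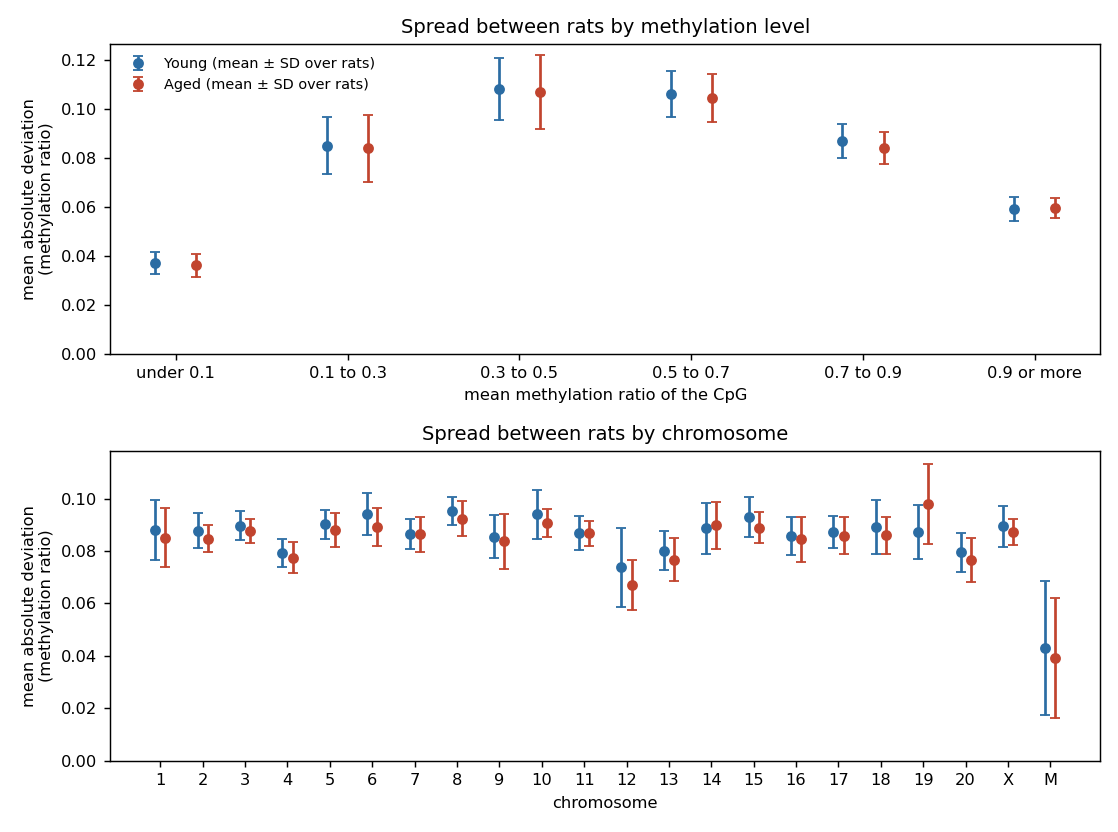
Mean absolute deviation from the age group (vertical axes, methylation ratio) by mean methylation ratio of the CpG (top) and by chromosome (bottom, M is the mitochondrial genome). Points are means and bars SDs over 10 young (blue) and 20 aged (red) rats, and the bars of the ages overlap in every class and chromosome, with the widest gap upward in aged rats on chromosome 19.

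CpG by CpG, deviations were tested with limma on the deviations of each rat, with Benjamini-Hochberg adjustment over the 20188 CpGs that varied at all. Spread was higher in aged rats at 44 and lower at 10 CpGs (0.267% of those tested in all). Before adjustment, 762 CpGs were higher and 992 lower in aged rats at p under 0.05, together 8.69%. Of the 44 CpGs with more spread in the aged, 37 lay within 877 bp of chromosome 19. Elsewhere 7 were higher and 10 lower, and without the 86 CpGs of that stretch only 0 and 1 passed. Deviations from the group median in place of the mean, a more conservative form, left 4 higher and 0 lower CpGs with 417 and 485 at an unadjusted p under 0.05, and all 4 lay in the chromosome 19 stretch. On the arcsine scale 105 were higher and 47 lower, on the logit scale 110 and 49, within age and series 4 and 7, without series A 1 and 1, without series B 3 and 8, and without series C 29 and 21. Within age and series, 985 were higher and 1249 lower at an unadjusted p under 0.05 (limma).

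To reduce the part of read counting, neighboring CpGs were averaged into loci, runs of 5 or more members with gaps under 1000 bp. There were 1065 such loci with 12412 CpGs (61.4% of the members). The SD between rats was higher in the aged at 532 of them, with medians of 0.0475 in aged and 0.0466 in young rats. A single locus passed limma's test after adjustment (0.0939% of loci), and it was higher in the aged, while 27 loci were higher and 45 lower before adjustment (6.76% together).

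**Figure D3:**
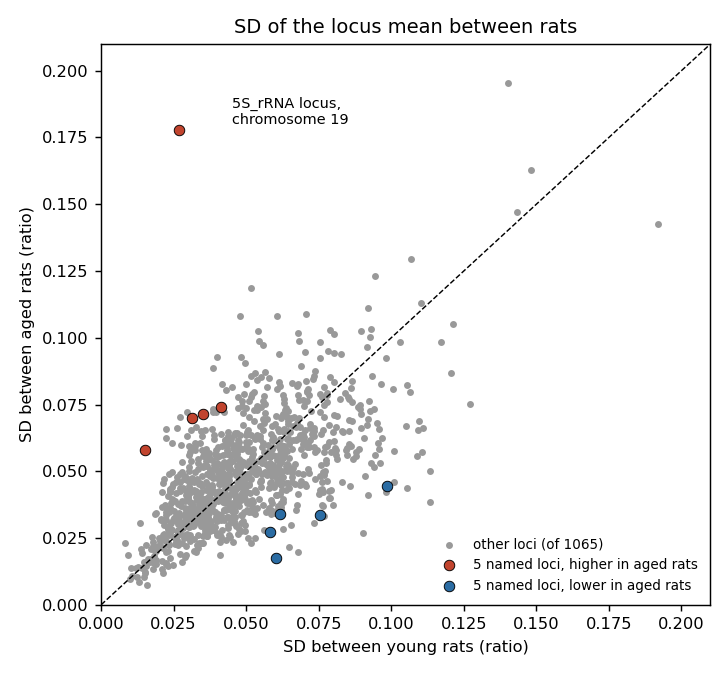
SD between rats of the locus mean (methylation ratio) in 20 aged (vertical axis) against 10 young rats (horizontal axis) for 1065 loci, each point a locus, red and blue the named loci higher and lower in aged rats, and the dashed line equality. The 5S_rRNA locus of chromosome 19 lies at 0.178 in aged and 0.0269 in young rats, and 532 loci lie above the line.

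This locus, chr19:67047902-67048778 in rn5, has 86 CpGs over 877 bp and holds CpGs that the study's tables place in the exon and promoter of a 5S_rRNA gene. The 86 are positions, and neighboring ones such as 67048022 and 67048023 were counted separately, so the number of distinct CpGs is smaller. 5S rRNA is the small RNA of the large ribosomal subunit, made by RNA polymerase III from genes present in many similar copies. Reads from such copies may have been placed together, so the ratios may average over copies. The locus mean of the 10 young rats lay between 0.403 and 0.486 (median 0.442). That of the 20 aged rats lay between 0.0392 and 0.527 (median 0.0934), and 13 aged rats lay below every young rat and 1 above. Deviations from the group mean were higher in aged rats by 0.149 (SE 0.0153, limma, adjusted p = 4.24e-08). The SD of the CpG-centered locus mean was 0.178 in aged and 0.0269 in young rats. Of its 86 CpGs, 81 had the higher SD in aged rats and 4 the lower, with median SDs of 0.212 and 0.0684.

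The wide aged range was a split in 2 groups of rats that followed the number series. Aged rats of series A had a mean of 0.0689 ± 0.0226 (SD, n = 11), the 1 aged rat of series C 0.0525, and aged rats of series B 0.434 ± 0.0443 (SD, n = 8). Young rats had 0.464 ± 0.0274 in series A (n = 3), 0.444 ± 0.00684 in B (n = 3) and 0.430 ± 0.0304 in C (n = 4). Series A and B thus lay far apart in the aged rats and side by side in the young. Within age and series, the difference in deviation was 0.00479 and did not pass (limma, unadjusted p = 0.572, adjusted p = 0.881). With deviations from the median, the difference was 0.127 with an adjusted p of 0.890 (limma, unadjusted p = 0.01). Without series A it was 0.0583 and without series B -0.00615 (limma, adjusted p = 0.790 and 0.832). It kept its call without series C (0.154, limma, adjusted p = 2.07e-06) and with series as a covariate of the deviations, which were still taken from the age mean (0.154, limma, adjusted p = 2.09e-08). Leaving out single rats kept it between 0.138 and 0.154, with adjusted p-values from 2.93e-09 to 4.30e-06. What sets the series apart was not tested.

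**Figure D4:**
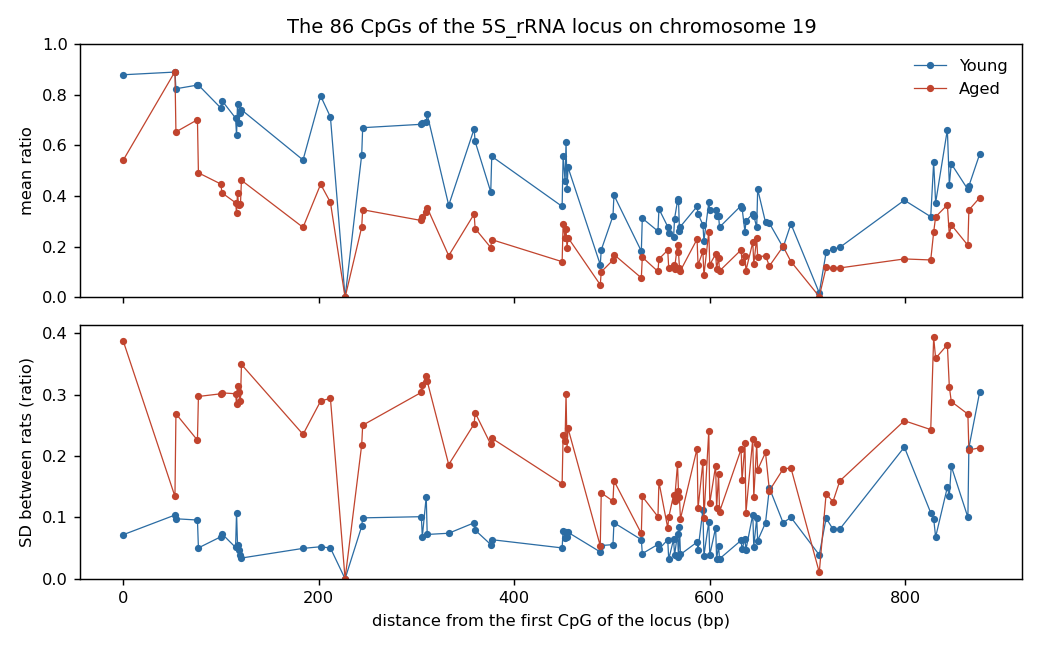
Mean methylation ratio (top) and SD between rats (bottom) at the 86 CpGs of the 5S_rRNA locus on chromosome 19, by distance in bp from its first CpG, in 10 young (blue) and 20 aged (red) rats. The aged SD lies above the young SD at 81 of the 86 CpGs, with a highest value of 0.393 in aged and 0.304 in young rats.

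Next by p-value among the loci with more spread in aged rats came a pair with many CpGs, neither of which passed adjustment. The first, chr1:13503317-13506715 with 347 CpGs at AABR06000596.1, ranged from 0.435 to 0.641 in aged (median 0.503) and from 0.587 to 0.690 in young rats (median 0.632). Its deviation was higher in aged rats by 0.0366 (SE 0.00992, limma, adjusted p = 0.256). With at least 10 ratios in each age it was 0.0432 and passed (limma, adjusted p = 0.0346), while the other locus of the pair was not called. The second, chr14:46701149-46702821 with 58 CpGs at LOC257642, ranged from 0.382 to 0.610 in aged (median 0.490) and from 0.519 to 0.640 in young rats (median 0.560), a difference in deviation of 0.0400 (SE 0.0114, limma, adjusted p = 0.256). At both, the aged rats again divided by series. Aged rats of series A had 0.477 ± 0.0276 and those of series B 0.610 ± 0.0190 at the chromosome 1 locus, and 0.454 ± 0.0456 and 0.580 ± 0.0225 at the chromosome 14 locus. The aged rat of series C sat with series A at both (0.468 and 0.477). Young rats of series A and B were also apart at the chromosome 1 locus, in the opposite order (0.640 to 0.690 and 0.587 to 0.617), and overlapped at the chromosome 14 locus. Within age and series, the unadjusted limma p was 0.788 and 0.880.

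The remaining named loci with more spread in aged rats were chr4:240199862-240199964 (5 CpGs) and chr4:169123313-169123556 (7 CpGs). At the first, 19 aged rats ranged from 0.609 to 0.833 and 10 young rats from 0.566 to 0.716. At the second, 19 aged rats ranged from 0.693 to 0.9 and 8 young rats from 0.801 to 0.847, so that the young values were enclosed by the aged. Neither passed adjustment (limma, adjusted p = 0.383 for each). Their differences in deviation within age and series were 0.0311 and 0.0360 (limma, unadjusted p = 0.00768 and 0.0105), close to the 0.0367 and 0.0362 found without regard to series.

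The 5 named loci with less spread in aged rats had 5 to 9 CpGs, carried no gene of the study's tables and did not pass adjustment (limma, adjusted p from 0.256 to 0.285). At chr8:40898806-40899398 the 20 aged rats ranged from 0.656 to 0.847 and the 10 young rats from 0.583 to 0.898. At chr1:116313045-116313153 the 20 aged rats ranged from 0.724 to 0.855 and 8 young rats from 0.681 to 0.906, and its difference of -0.0393 became -0.0732 and passed without series A (limma, adjusted p = 0.0389). At chr1:188132819-188133416 the 20 aged rats lay between 0.598 and 0.661, and 1 young rat at 0.856 supplied 75.6% of the squared deviations of the young group. At chr14:94438362-94439648 the aged rats ranged from 0.744 to 0.912 and 9 young rats from 0.694 to 0.853, where the 4 young rats of series C averaged 0.717 and the other young rats 0.804 and 0.825 by series. There the difference of -0.0318 turned to 0.00167 within age and series.

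At chr1:238678274-238679379 the young rats spread wider than the aged in series A and B, and series C had 1 aged rat. The 20 aged rats ranged from 0.788 to 0.886 (median 0.813) and the 10 young rats from 0.717 to 0.9 (median 0.806). The SDs were 0.0308 and 0.0168 in aged rats of series A and B, and 0.0701, 0.0699 and 0.0576 in young rats of series A, B and C. Its difference in deviation of -0.0272 did not pass adjustment, and within age and series it was -0.0384 (limma, adjusted p = 0.00845). In that form 43 loci were higher and 71 lower at an unadjusted p under 0.05 (limma, 10.7%, against 6.76% in the main test). Deviations from the mean of few young rats depend on each other, which limma does not take into account. Besides chr1:238678274-238679379, only 1 of the 1065 loci passed within age and series. This was chr15:68767349-68767449 with 5 CpGs, with more spread in aged rats (0.0562, limma, adjusted p = 0.00845). It rested on 6 aged rats of series A, 4 of series B and 9 young rats, since the 1 aged rat of series C gave no deviation. There the 2 young rats of series B averaged 0.950 and the other young rats 0.778 and 0.777 by series.

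**Figure D5:**
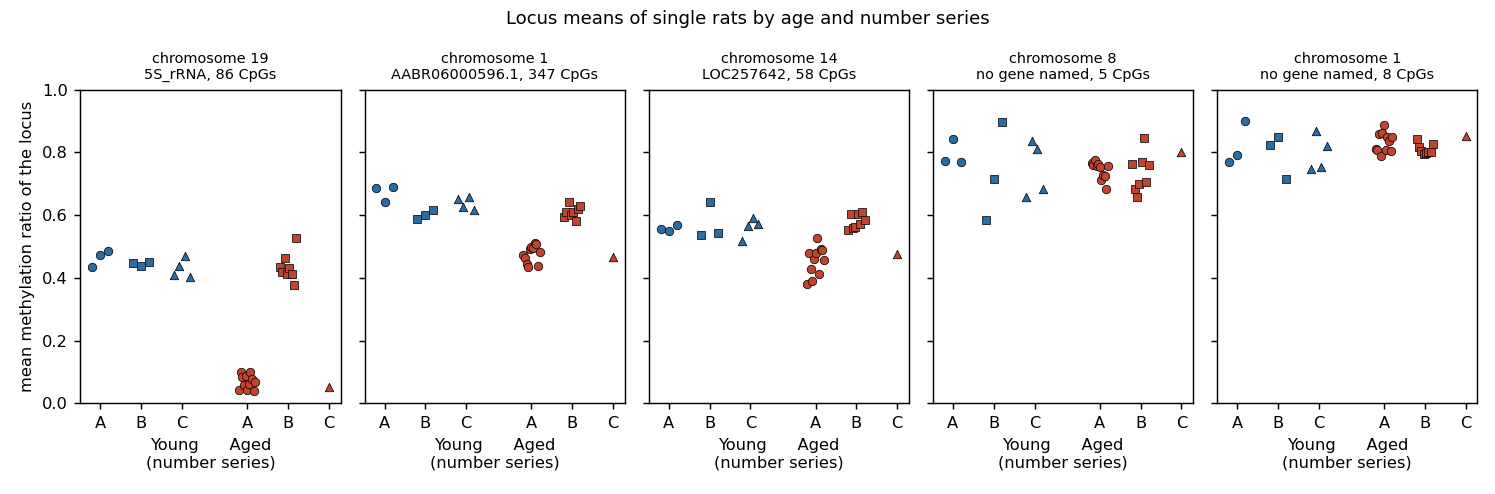
Mean methylation ratio of 5 of the named loci (vertical axis) in single rats by age (blue young, red aged) and number series (A, B, C). At the loci of chromosomes 19, 1 and 14 on the left the aged rats of series A and C lie below those of series B, while at the 2 loci on the right the young rats of several series spread wider than the aged.

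Series means also differed at some of the loci that varied most in both ages. Ranked by the lower of the age groups' SDs, a description chosen after the values were seen, the first was chr6:38853435-38853538 with 15 CpGs and SDs of 0.163 in aged and 0.148 in young rats. Its means were 0.196 and 0.162 in aged and young rats of series A against 0.405 and 0.430 in series B, but the aged series overlapped, with series A from 0 to 0.633 and series B from 0.303 to 0.496. At chr1:13555986-13556224, with 25 CpGs at LOC100909555, they were 0.199 and 0.224 in series A against 0.479 and 0.463 in series B. At chr6:39271000-39271471, with 82 CpGs, they were 0.196 and 0.233 against 0.352 and 0.435. The aged series overlapped there too, and of these 3 loci the one at LOC100909555 had no overlap of series A and B in either age. Other loci of high rank had closer series means in the aged rats, as at chr5:82198885-82198907, where aged means were 0.691 in series A and 0.721 in series B. For none of the 3 was a difference in deviation between ages detected (limma, unadjusted p = 0.552, 0.862 and 0.476).

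Of single CpGs, chr19:67048023 in the 5S_rRNA locus had the largest difference in spread among those past the threshold. Its 15 aged rats ranged from 0 to 0.926 and its 10 young rats from 0.690 to 0.809 (difference in deviation 0.307, SE 0.0343, limma, adjusted p = 6.59e-06). By series, its aged mean was 0.0801 in A and 0.765 in B. Outside that locus, at chr17:88595521, 18 aged rats ranged from 0.556 to 1.0 (median 0.958) and 8 young rats from 0.667 to 0.818 (difference in deviation 0.115, limma, adjusted p = 0.0402). At chr15:61920836 the 8 young rats all had a ratio of 1.0 and 12 aged rats ranged from 0.714 to 1.0 (0.0892, limma, adjusted p = 0.0259). At chr3:173829233 all 8 young rats were at 0, and 15 aged rats lay between 0 and 0.231, with a median of 0 (0.0769, limma, adjusted p = 0.00919). At chr8:20411820 and chr9:11393376, 1 young rat in each was under 1.0, while the aged rats reached down to 0.750 (adjusted p = 0.0135 and 0.0230, limma). A spread of 0 in the young rests on 8 rats with at least 5 reads each.

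In the other direction, chr9:11337092 had 16 aged rats from 0 to 0.2 and 8 young rats from 0 to 0.6, both with a median of 0 (difference in deviation -0.150, limma, adjusted p = 0.0209). The CpG chr6:39271237, within the 82-CpG locus of chromosome 6, ranged from 0 to 0.333 in aged and from 0.1 to 0.571 in young rats (-0.107, limma, adjusted p = 0.0390). It was followed by chr17:90484162 with -0.0948, chrX:36794602 with -0.0863, chr4:161155091 with -0.0814 and chrX:62826822 with -0.0727 (limma, adjusted p from 0.0226 to 0.0454). At chr4:161155091 the 18 aged rats stayed within 0.538 and 0.706, whereas 9 young rats reached from 0.4 to 0.727. With deviations within age and series, 1 of the 12 named CpGs kept its call, chr17:90484162 (-0.110, limma, adjusted p = 0.0327), and the others had adjusted p-values from 0.0537 to 0.6. The difference fell to 0.0445 at chr19:67048023, -0.0357 at chr6:39271237, 0.0866 at chr17:88595521 and -0.1095 at chr9:11337092. At chr15:61920836, chr3:173829233, chr8:20411820 and chr9:11393376 it stayed close, with 0.0972, 0.0765, 0.0788 and 0.0698. Of all 54 calls, 3 were shared with the 11 made within age and series. On the arcsine scale 4 of the 6 named lower CpGs lost their call, chr6:39271237, chrX:36794602, chr17:90484162 and chr4:161155091 (limma, adjusted p = 0.658, 0.693, 0.0540 and 0.0568), and the 6 higher ones kept theirs. With deviations from the median, none of the 12 passed (limma, adjusted p from 0.116 to 0.999). The differences were then 0.297 at chr19:67048023, 0.110 at chr17:88595521, 0.0754 at chr9:11393376, -0.116 at chr9:11337092 and -0.0996 at chr6:39271237. None of the 11 named CpGs outside the locus passed when the chromosome 19 stretch was left out of the adjustment (limma, adjusted p from 0.12 to 0.15). The one CpG that did, chr14:49863899, is named for that reason. There the ratio was 0 in each of the 20 aged rats and between 0 and 0.167 in the 10 young rats (-0.0578, limma, adjusted p = 0.0288).

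Gene names could be given to the few members that the study lists with a gene. Of 615 CpGs in its lists of sites related to RNA level with aging or with set shifting, 47 in 30 genes met the rule. The lists were chosen on these same rats and are not independent evidence. Spread was higher in aged rats at 33 of the 47 (70.2%, against 48.6% of all CpGs tested), with a median difference of 0.0190 against -0.000971 over all CpGs. In limma's test 3 passed after adjustment (against 0.267% of all CpGs), all higher in aged rats and all in 5S_rRNA, and 14 passed before adjustment, 12 higher and 2 lower (against 8.69%). Of these 14, 7 lay in 5S_rRNA and 3 in LOC257642, the loci divided by series. Outside both, 30 CpGs in 28 genes remained, of which 19 were higher and 11 lower in aged rats, and 2 of each passed before adjustment.

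The 5S_rRNA CpG with the largest difference, chr19:67048450 in the exon, ranged from 0 to 0.5 in aged and from 0.263 to 0.451 in young rats (0.117, limma, adjusted p = 0.00802). A 5S_rRNA promoter CpG, chr19:67048535, ranged from 0 to 0.474 and from 0.254 to 0.439 (0.104, limma, adjusted p = 0.0611). The exon CpG chr19:67048466 and the promoter CpG chr19:67048512 also passed, with differences of 0.0848 and 0.0770 (limma, adjusted p = 0.00844 and 0.0390). At the LOC257642 intron, chr14:46701852 ranged from 0 to 0.6 in 8 aged and from 0.125 to 0.6 in 8 young rats, and chr14:46702196 from 0.273 to 0.875 and from 0.538 to 0.778 (0.0900 and 0.0814, limma, adjusted p = 0.666 and 0.482).

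Of genes with a known role, an intronic CpG of Cdk19, a kinase of the Mediator complex that links transcription factors to RNA polymerase II, had ratios from 0.2 to 1.0 in 10 aged and from 0.6 to 0.875 in 8 young rats (0.1, limma, adjusted p = 0.624). An intronic CpG of Cntnap5c, a neurexin-family cell adhesion protein, went the other way, with 0.4 to 0.833 in 12 aged and 0.143 to 0.8 in 8 young rats (-0.115, limma, adjusted p = 0.412). Zfp704, a zinc finger protein, had an intronic CpG with 0.6 to 1.0 in aged and 0.429 to 1.0 in young rats, 8 of each (-0.0867, limma, adjusted p = 0.612). Of the genes that the study groups by function as hypermethylated with age, Sbf2 and Tbc1d15 were represented, both regulators of Rab GTPases in membrane traffic. The Sbf2 intron CpG ranged from 0.462 to 1.0 in 18 aged and from 0.571 to 0.8 in 9 young rats, and the Tbc1d15 intron CpG from 0 to 0.429 in 10 aged and from 0.2 to 0.571 in 8 young rats. The mean ratio was higher in aged rats at the Sbf2 CpG (0.806 against 0.689) and lower at the Tbc1d15 CpG (0.191 against 0.382). Their differences in deviation were 0.0338 and 0.0108 (limma, adjusted p = 0.832 and 0.971). Of these 47 listed CpGs, none outside 5S_rRNA passed after adjustment. The 17 called CpGs outside the chromosome 19 locus were not compared with a gene annotation.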

How the data were processed

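Methylation ratios of CpGs in 30 rats were used as deposited. Per the study's methods and the submitters' processing notes, the authors checked reads with FastQC, trimmed them with Trimmomatic, aligned them with BSMAP to rn5 and called each ratio as the fraction of methylated reads at CpGs with at least 5 reads, keeping CpGs with 3 or more rats in each group. The tables hold no read counts per rat, so no interval for counting error is given, and a ratio at 5 reads moves in steps of 0.2. Read depths that the study lists per age group for some CpGs were not used here. Non-CG tables were not used.

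CpGs with at least 8 ratios in each age were kept, counted by position without merging the strands. For the limma tests, absolute deviations from the group mean were multiplied by the square root of n/(n-1). For values per rat, equal numbers of rats were drawn at each CpG in 20 seeded draws and compared by 2-sided permutation (100000 resamples, or exact). Single CpGs, and loci (5 or more CpGs with gaps under 1000 bp, 3 or more CpGs in a rat), were tested with limma 3.58.1 in R 4.3.3, with Benjamini-Hochberg adjustment and a threshold of 0.05. Other steps ran in Python 3.11.15 (scipy 1.17.1 for statistics, numpy 2.4.6 and pandas 2.3.3 for tables, matplotlib 3.10.9 for figures). The procedures were tested on simulated data.

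Named CpGs were the 6 with the largest higher and the 6 with the largest lower spread past the threshold, 1 per 10 kb. Named loci were 5 in each direction, by p where too few passed. Named gene CpGs were the 8 with the largest difference among the study's listed sites, with those of genes in its functional groups for hypermethylation with age. Positions are rn5. Of the 30 gene names, 19 matched RefSeq symbols. The members and lists were chosen with earlier results of these data known. Alternatives covered the minimum number of ratios, the scale, the center of the deviations, the number series and single rats. The rats are separate animals, and their identifiers are the only sign of a batch.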

Additional observations from a re-analysis of the deposited data

Results flagged for a closer look

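Of 60 groups of 4 to 10 rats examined for a single rat far from the others, 7 held one. Nearly all groups examined were of young rats, since most aged groups were larger. Chance gives about 1 in 20, but several of these CpGs and loci were named for their spread, so this rate does not apply to them. Young rat 9 had a deviation of 0.0486 at CpGs with a mean ratio under 0.1 (nearest other young rat 0.0392) and of 0.110 on the mitochondrial genome (nearest 0.0513). Young rat 7 had a mean ratio of 0.566 at chr4:240199862-240199964 (nearest 0.641), and Young rat 10 one of 0.856 at chr1:188132819-188133416 (nearest 0.694). Young rat 3 had a ratio of 0.889 at chr8:20411820 and Young rat 1 one of 0.917 at chr9:11393376, where all other young rats were at 1.0. Young rat 9 had 0.6 at chr14:46701852 in LOC257642 (nearest 0.333).

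The aged-young difference in deviation at chr1:116313045-116313153 was -0.000934 in series A and -0.101 in series B. These differed by 0.1004 (permutation of series within age, 10000 resamples, p = 0.0002, adjusted p = 0.0022 over 11 tests), and series B had only 2 young rats with a value there.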

How the results depend on the processing

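The per-rat difference kept its direction under 20 of 21 alternatives. It passed the threshold under 3 of these and stayed short of it under the other 17, apart from the SD between rats, which was not tested. It was 0.000369 without series A, -0.00560 without series B, -0.00388 adjusted for CpGs with a ratio and -0.00231 with that adjustment at CpGs with a ratio in all rats. Leaving out single rats gave -0.00302 (without Aged rat 15) to -0.000574 (without Young rat 9), with permutation p from 0.282 to 0.845. With the same adjustment, the difference was -0.00139 within series A and -0.00564 within series B (exact permutation test, adjusted p = 0.0604 and 0.0121). The number of CpGs adjusted for depends on the rule for members, which treats the ages unequally.

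Some level classes changed sign, none past the threshold. At CpGs with a ratio in all rats the differences were 0.00339 (0.1 to 0.3), 0.00625 (0.3 to 0.5), 0.00241 (0.5 to 0.7) and -0.000312 (0.9 or more). With at least 10 ratios in each age they were 0.00250, 0.00344, 0.00133 and -0.000822. On the arcsine scale they were 0.00469 at 0.1 to 0.3 and -0.00278 at 0.9 or more, and within age and series 0.00123 under 0.1.

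Chromosome calls numbered 1 at CpGs with a ratio in all rats, 1 with at least 10 ratios and 6 with pairs of rats, whose values are not independent. Chromosome 19 was called higher in each (0.0283, 0.0245 and 0.0123), and the other 5 calls with pairs were lower in aged rats. Within age and series, chromosomes 14 and 19 gave -0.00174 and -0.00304, and without the 5S_rRNA locus, with newly drawn rats, chromosome 19 gave -0.00489. Leaving out single rats gave -0.000184 (without Young rat 5) to 0.00349 (without Young rat 9) on chromosome 14 and -0.0103 (without Aged rat 15) to 0.00614 (without Young rat 9) on the mitochondrial genome.

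CpGs called higher in the aged numbered 26 with a ratio in all rats, 105 on the arcsine and 110 on the logit scale, 4 from the median, 4 within age and series, 1, 3 and 29 without series A, B and C, 1 with 1 CpG per cluster and 0 without the 5S_rRNA locus. Those called lower numbered 22 with at least 5 ratios, 47 on the arcsine and 49 on the logit scale, 0 from the median, 1 without series A, 21 without series C, 1 at ratios of 0.1 to 0.9, 0 with 1 CpG per cluster and 1 without that locus. Loci called higher numbered 2 with at least 10 ratios and 0 from the median or without series A or B. Loci called lower numbered 1 within age and series and 1 without series A, and leaving out single rats gave 1 higher throughout and 0 to 1 lower. The 5S_rRNA locus gave -0.00615 without series B, and chr14:94438362-94439648 gave 0.00167 within age and series and 0.0106 without series C. The causes were not tested.

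Leaving out a series used CpGs with at least 5 remaining ratios. No paired analysis was possible because the replicate numbers only name rats in order. Read depth per rat was not used here, which limits the values of single CpGs most.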
